A study of Mus musculus with 8 samples.

Results

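Antigen presentation genes of the class II major histocompatibility complex (MHC) and genes that mark Langerhans cells, the resident antigen-presenting cells of the epidermis, were examined for MOF, Rfx2 and histone mark peaks. The 10 genes, of 26180 annotated mouse genes, were the class II chain genes H2-Aa, H2-Ab1, H2-Eb1 and H2-DMa, the invariant chain gene Cd74, the class II activator gene Ciita, and the Langerhans cell and leukocyte genes Cd207, Ptprc, Csf1r and Aif1. The rule that names them uses their function and no measured value, but it was set with earlier results of these data known. For each gene, peaks were looked up at the promoter (1 kb upstream to 100 bp downstream of a curated RefSeq transcription start), in the remaining gene body and within 20 kb of the gene. All libraries came from Wildtype total epidermis at P0.5, with no knockout and no sorting of cells stated. The epidermis was taken from back skin and made into a single cell suspension. The study's mice were of a mixed strain background, and the reads were aligned to the reference genome. Whether strain differences in sequence affected the peaks called or missed at these genes, those of class II included, was not tested. MOF, the acetyltransferase that modifies lysine 16 of histone H4, was mapped by ChIPseq, and Rfx2, H3K4me3 and H3K27Ac by Cut&Run, in which a nuclease is tethered to the antibody and releases the DNA around it. There was 1 peak list per antibody (17546 MOF, 337 Rfx2, 27039 H3K4me3 and 30736 H3K27Ac peaks), so the values have no replicate error and nothing was tested. The lists give no read depth. The MOF list holds more peaks than the study states for MOF and may be a less strictly filtered call, so each MOF count here rests on the longer list. The series had 8 samples, and those without a peak list were not analysed here. The H3K4me3 and H3K27Ac lists are attached to the repeat library of each mark.

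Class II molecules are pairs of an alpha and a beta chain that display peptides to T cells. H2-Aa and H2-Ab1 encode the chains of the I-A molecule, H2-Eb1 the beta chain of I-E, and H2-DMa a chain of the H2-DM molecule that loads peptides. Cd74 chaperones the new chains, and Ciita switches the whole set on in professional antigen-presenting cells without binding DNA itself. Class II promoters carry an X box, bound by an RFX complex of Rfx5, Rfxank and Rfxap, and a Y box, bound by NF-Y. Rfx2 is another protein of the RFX family and is best known from ciliary genes. Mature Langerhans cells make langerin (Cd207), and Langerhans cells need the receptor Csf1r, whose ligand Il34 is made by keratinocytes. Whether the Langerhans cells of P0.5 epidermis already make langerin and class II molecules was not measured here. Ptprc encodes CD45 of all leukocytes and Aif1 encodes IBA1 of macrophage-related cells. H3K4me3 marks active starts and H3K27Ac active starts and enhancers.

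The X and Y boxes were first looked for in the letters of the promoters, because they are the reason for asking about an RFX protein here. A search for GNAAC followed on the gene strand by ATTGG, with a gap of 15 to 35 bases, was made in the 250 bases before each RefSeq start. Such a pair was found in 1.71% of the 27025 genes in the RefSeq promoter set that was searched. Of the 10 genes 6 were among these (H2-Aa, H2-Eb1, H2-DMa, Cd207, Ptprc and Aif1), and 2 of these held it, H2-Aa and H2-Eb1. In H2-Aa (chr17:34282744-34287823, minus strand) the GNAAC letters began 81 bases before the start and ATTGG 48 bases before it, with a gap of 28 bases. In H2-Eb1 (chr17:34305867-34316674, plus strand) the distances were 91 and 59 bases and the gap was 27 bases. The last 150 bases before each start are shown from RefSeq on GRCm38.p6 (the assembly known as mm10), 5′ to 3′ on the gene strand, chr17:34287824-34287973 for H2-Aa and chr17:34305717-34305866 for H2-Eb1, with the letters of the 2 boxes in capitals.
H2-Aa: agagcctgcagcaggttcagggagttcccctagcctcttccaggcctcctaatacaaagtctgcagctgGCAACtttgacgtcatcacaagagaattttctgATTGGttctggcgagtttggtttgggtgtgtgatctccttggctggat
H2-Eb1: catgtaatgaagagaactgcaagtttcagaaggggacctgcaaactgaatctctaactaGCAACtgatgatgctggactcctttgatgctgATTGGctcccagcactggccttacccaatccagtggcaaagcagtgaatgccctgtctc

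Other class II chain genes of the same region had the same arrangement. Of the 6 further chain genes listed (H2-DMb1, H2-DMb2, H2-Oa, H2-Ob, H2-Eb2 and H2-Ea), 5 were in the promoter set searched and 4 held the pair, with gaps of 25 to 28 bases. Among the other gene lists (those of class I, of processing and of cell types) no gene searched held it. The stretches are printed on the gene strand with 12 bases before and 8 after, to show that the capitals recur at nearly the same spacing while the bases between them differ. They lie at chr17:34325531-34325587 (H2-Eb2), chr17:34238806-34238860 (H2-Ob), chr17:34092291-34092348 (H2-Oa) and chr17:34153085-34153142 (H2-DMb1), all on the plus strand.
H2-Eb2: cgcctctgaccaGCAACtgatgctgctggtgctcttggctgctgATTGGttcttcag
H2-Ob: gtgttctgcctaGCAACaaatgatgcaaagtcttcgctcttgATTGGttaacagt
H2-Oa: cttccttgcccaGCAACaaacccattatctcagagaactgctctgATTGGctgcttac
H2-DMb1: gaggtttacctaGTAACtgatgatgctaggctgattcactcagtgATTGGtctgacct
H2-DMb1 alone among them had T as the second letter of the first box. The pair is a match of letters and was not taken as a bound site.

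No promoter of the 10 genes held an Rfx2 peak (0 of 10, exact 95% confidence interval 0 to 30.8%), beside 1.21% of all genes. A longer X-box of the kind known from ciliary genes (GTNRCC and RGYAAC up to 3 bases apart, on either strand) was in none of the 6 promoters searched, and 1.49% of all genes searched had it. It was present in 22.2% of the Rfx2 peaks on assembled chromosomes, 1.49% of MOF peaks, 2.16% of H3K4me3 peaks and 1.42% of H3K27Ac peaks. The GNAAC and ATTGG pair was in the central 300 bases of 7.29% of Rfx2 peaks, on either strand, and in 2.16% of H3K4me3 peaks.

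A single Rfx2 peak lay within 20 kb of any of the 10 genes. It was 5577 bp past the 3′ end of Aif1 (chr17:35170986-35176052, minus strand), at the promoter of the neighbouring gene Prrc2a. Its fold enrichment of 6.90 ranked 185th of 337 Rfx2 peaks. MOF, H3K4me3 and H3K27Ac peaks lay over the same place. The whole peak, chr17:35165132-35165409, is printed because it is the one place near these genes where Rfx2 was called. It is on the plus strand of GRCm38.p6 and a match to GNAAC or its reverse complement is in capitals.
Rfx2 peak: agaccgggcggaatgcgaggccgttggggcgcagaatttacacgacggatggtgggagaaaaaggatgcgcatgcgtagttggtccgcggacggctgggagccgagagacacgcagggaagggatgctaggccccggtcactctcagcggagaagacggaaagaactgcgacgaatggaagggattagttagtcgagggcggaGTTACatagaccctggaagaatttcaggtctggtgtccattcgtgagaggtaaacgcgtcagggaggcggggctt
The longer X-box was not in these letters. The peak was rich in CpG (observed over chance 1.18, higher than in 99.1% of Rfx2 peaks). The Rfx2 peak nearest to the class II chain genes was at the promoter of Rnf5 (chr17:34603772-34604314, fold enrichment 7.16), 298 kb from the H2-Eb1 start, 316 kb from H2-Aa, 341 kb from H2-Ab1 and 478 kb from H2-DMa.

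Peaks were found at the promoters of 2 of the 10 genes, a smaller share than over all genes for each antibody on curated RefSeq starts. MOF had a peak at 1 of 10 promoters (H2-Ab1), beside 23.7% of all genes. H3K4me3 was at 2 (H2-Ab1 and H2-DMa), beside 54%. H3K27Ac was at 1 (H2-DMa), beside 44.1%. The promoters of the other 8 genes (H2-Aa, H2-Eb1, Cd74, Ciita, Cd207, Ptprc, Csf1r and Aif1) had no peak of any of the 4 lists, which was the case for 44.1% of all genes. With 10 genes the exact 95% interval ran from 2.52 to 55.6% for the H3K4me3 share and from 0.253 to 44.5% for MOF and for H3K27Ac, so each still held the share of all genes. These intervals cover counting over genes only. On GENCODE M21 basic transcripts, which hold more genes and more starts, the lower share was lost for MOF, at 2 of 10 beside 13.3% of genes. H3K4me3, at 3 of 10 beside 30.2%, came close to the share of all genes. H3K27Ac, at 2 of 10 beside 23.9%, stayed slightly below it.

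**Figure D1:**
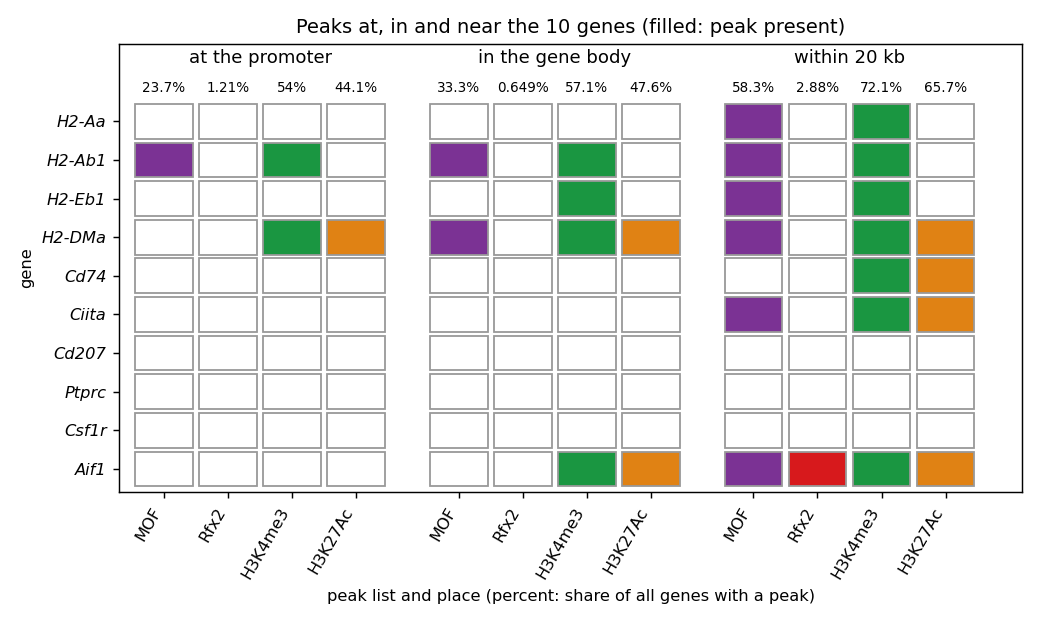
Presence of a peak (filled) for each of the 10 genes (vertical axis) in each of the 4 peak lists at the promoter, in the gene body and within 20 kb (horizontal axis), with the share of all 26180 genes above each column in percent. Promoter columns are filled for H2-Ab1 and H2-DMa, and the rows of Cd207, Ptprc and Csf1r are empty throughout.

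In the gene body the class II chain genes and Aif1 carried the peaks. MOF was in 2 gene bodies (H2-Ab1 and H2-DMa), beside 33.3% of all genes, and Rfx2 in none, beside 0.649%. H3K4me3 was in 4 (H2-Ab1, H2-Eb1, H2-DMa and Aif1), beside 57.1%, and H3K27Ac in 2 (H2-DMa and Aif1), beside 47.6%. Within 20 kb the counts came close to the shares of all genes for MOF (6 of the 10 genes, beside 58.3%) and H3K4me3 (7, beside 72.1%). H3K27Ac was near 4, a lower share than the 65.7% of all genes, and Rfx2 near 1, beside 2.88%. Of the distinct peaks within 20 kb, 9 of 24 H3K4me3 peaks, 3 of 8 MOF peaks and 5 of 12 H3K27Ac peaks overlapped the promoter of a gene outside the 10. Of these, 3 H3K4me3 peaks and 1 H3K27Ac peak were also at the H2-DMa promoter. Cd207, Ptprc and Csf1r had no peak of any list within 20 kb, as did 20.6% of all genes.

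H2-Ab1 (chr17:34263227-34269418, plus strand), the beta chain of I-A, was the 1 gene of the 10 with an H3K4me3 peak of high fold enrichment on its own start. The peak spanned chr17:34263034-34263815, covered the start and the first exon, and had a fold enrichment of 12.4 over the peak caller's local background, higher than 94.3% of H3K4me3 peaks. Fold enrichment and significance ranked peaks differently, and by −log10 q (47.1) the same peak was higher than 74.7% of the list. A MOF peak at chr17:34263315-34263740 began 88 bp past the start and had a score of 470, higher than 27.4% of MOF peaks, on a scale that was not stated. It reached into the promoter window by 13 bp, and 0 of the 10 promoters had MOF when the peak centre, the core of the peak or the strongest 50% of peaks was required. Weaker H3K4me3 peaks followed in the gene, with a fold enrichment of 2.94 in the first intron and 3.53 at chr17:34264792-34265068 over the second exon, higher than 3.19% and 6.21% of the list. H3K27Ac had no peak nearer than 44.2 kb. H2-Ab1 thus had H3K4me3 on its start, and a MOF peak whose place at the promoter depended on the overlap rule, without a called H3K27Ac peak.

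H2-Eb1 had no peak of any list at its start, and its H3K4me3 lay inside the gene. The peak at chr17:34309372-34310067 had a fold enrichment of 13.7, higher than 97.2% of H3K4me3 peaks (rank 745 of 27039), and a −log10 q of 35.9, higher than 63.5%. It began 3505 bp past the start and covered the whole second exon (chr17:34309591-34309860), which encodes the first part of the beta chain outside the cell membrane. GENCODE M21 places the start of an H2-Eb1 transcript with a retained intron at position 34309575 within the peak, whereas no curated RefSeq transcript starts there. The exon was rich in CpG dinucleotides, with 24 in 270 bases and an observed over chance ratio of 1.11. By contrast, the promoter window of H2-Eb1 had a ratio of 0.0812, lower than that of most starts (4.73% of all starts were lower). The exon is printed on the plus strand of GRCm38.p6, with each CpG in capitals, to show their density under the peak.
H2-Eb1 exon 2: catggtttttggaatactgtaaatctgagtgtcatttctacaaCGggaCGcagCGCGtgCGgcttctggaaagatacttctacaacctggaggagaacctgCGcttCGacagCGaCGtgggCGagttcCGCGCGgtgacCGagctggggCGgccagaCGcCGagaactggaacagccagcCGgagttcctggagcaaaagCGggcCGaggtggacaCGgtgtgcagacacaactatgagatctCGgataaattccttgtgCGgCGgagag

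The second exon of H2-Ab1 (chr17:34264761-34265033) was alike, with 30 CpG in 273 bases, a ratio of 1.08 and the weaker H3K4me3 peak named above. The second exons of all 10 class II chain genes were therefore compared. In 3 the ratio was 0.8 or more (H2-Ab1, H2-Eb1 and H2-Oa, 0.845 to 1.11), and each of these 3 exons overlapped an H3K4me3 peak. H2-Ab1 and H2-Eb1 had prompted the comparison, so only H2-Oa was new to it, and its peak also lay in the overlapping gene BC051537. Of the other 7 exons, that of H2-DMa (0.493) overlapped an H3K4me3 peak, and the 6 without such a peak had ratios of 0.154 to 0.414. The value 0.414 is that of H2-Ea, whose only curated transcript is non-coding. At 282 bases, this exon has the length of the third exon of H2-Aa, H2-Ab1 and H2-Eb1, so it may not be the matching exon. The first exon of H2-Ea (248 bases) had a ratio of 0.478 and no peak. Among all 28195 exons of 200 to 600 bp outside promoter windows, 2.73% overlapped an H3K4me3 peak, and among the 759 with a ratio of 0.8 or more the share was 30.0%. Chain genes of one region share ancestry and are not independent of each other.

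H2-Aa had no peak at its promoter or in its body. The nearest H3K4me3 peak, chr17:34291727-34292027, lay 3904 bp upstream of the start and 13840 bp upstream of H2-Eb1. It was narrow, at 301 bp beside a list median of 764 bp, and its fold enrichment of 10.4 was higher than that of 85.3% of H3K4me3 peaks, against 47.0% by −log10 q. A MOF peak at chr17:34295937-34296175 lay 8114 bp upstream of H2-Aa and 9692 bp upstream of H2-Eb1, with a score of 389 (higher than 13.9% of MOF peaks). Neither interval holds an annotated transcription start in RefSeq or GENCODE, and neither overlaps the other. The H3K4me3 interval had a CpG ratio of 0.443 and the GNAAC and ATTGG pair was not in its central 300 bases.

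H2-DMa (chr17:34122832-34139101, plus strand) had 2 curated starts and its promoter peaks could not be told apart from those of its neighbour. Its first start lies head to head with Brd2, a bromodomain gene that is transcribed the other way from positions 34122607, 34121747 and 34119900. The 3 H3K4me3 peaks at the H2-DMa promoter had fold enrichments of 2.29, 1.88 and 2.32, each higher than at most 1.23% of the list (21.3 to 40.2% by −log10 q), and the H3K27Ac peak at chr17:34120796-34122798 had 3.96 (higher than 25.1%). All 4 also overlapped a Brd2 promoter. The second start, at position 34125518, had no peak. The highest MOF score near H2-DMa, 1076 (higher than 90.1% of MOF peaks), was at chr17:34118316-34120072, at the Brd2 promoter, where GENCODE M21 also places starts of non-coding H2-DMa transcripts. The strongest H3K4me3 and H3K27Ac peaks within H2-DMa, with a further MOF peak, lay far inside the gene, at the second exon (chr17:34135182-34135758), 8944 to 9793 bp past the second start.

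At that exon H2-DMa had H3K4me3, H3K27Ac and MOF side by side. The H3K4me3 peak at chr17:34135293-34135865 had a fold enrichment of 11.3 (higher than 90.6% of its list), the H3K27Ac peak at chr17:34135311-34135931 had 6.02 (70.1%), and the MOF peak at chr17:34134462-34135477 had a score of 589 (50.7%). GENCODE M21 places the starts of 2 protein-coding transcripts under the 2 histone mark peaks, at positions 34135628 and 34135654. The GNAAC and ATTGG pair was not in the 250 bases before either of them, nor before the curated starts. A further H3K4me3 peak (fold enrichment 6.85) lay just past the 3′ end. Of the 4 chain genes, H2-DMa was thus the one with H3K27Ac.

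Across the class II region of 252.3 kb, from H2-Oa to H2-Ea (chr17:34092379-34344645), there were 7 MOF, 20 H3K4me3, 6 H3K27Ac and no Rfx2 peaks. At or in a class II chain gene lay 2 of the MOF, 10 of the H3K4me3 and 2 of the H3K27Ac peaks. H2-Aa, H2-DMb2, H2-Ob, H2-Eb2 and H2-Ea had none. The region also holds genes of the class I pathway, which is used by nearly all cells, and most of their promoters had both marks. The shared promoter of Psmb9 and Tap1 had H3K4me3 at a fold enrichment of 9.81 and H3K27Ac at 8.28, and Tap2, which also had MOF, 13.7 and 7.17. Psmb8 had H3K4me3 at 10.3 without H3K27Ac. On the side of H2-Ab1 that holds H2-Aa, H2-Eb1, H2-Eb2 and H2-Ea, there was no H3K27Ac peak.

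**Figure D2:**
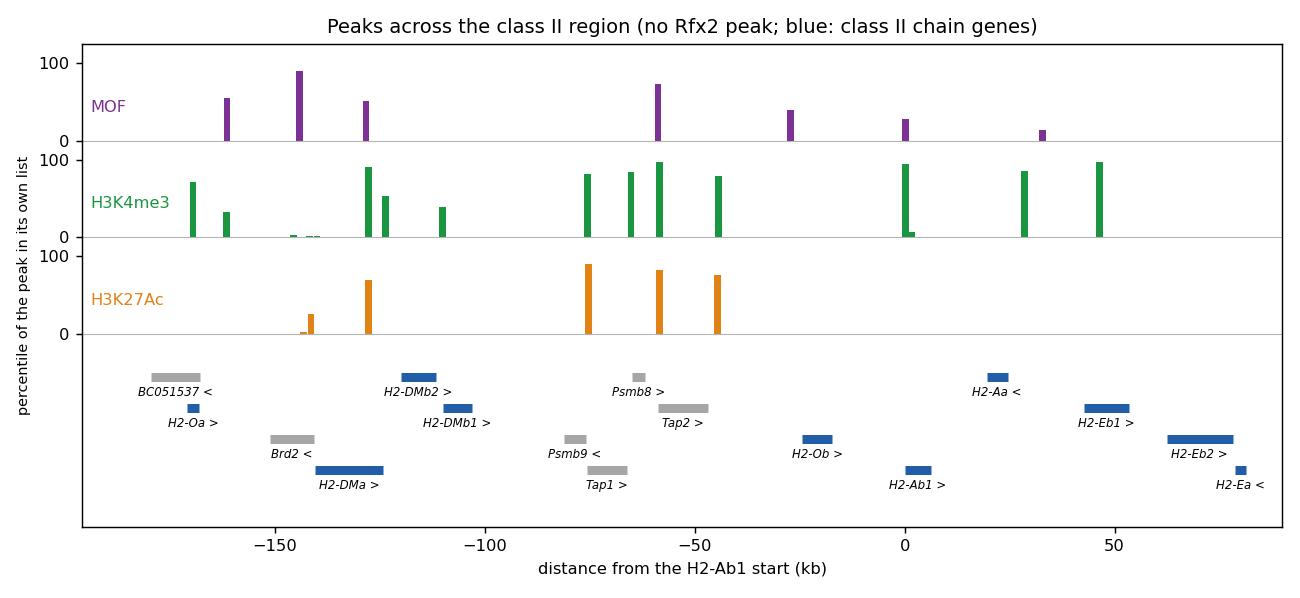
Peaks across the class II region by distance from the H2-Ab1 start in kb (horizontal axis), with bar height giving the percentile of each peak within its own list by fold enrichment, or score for MOF (vertical axis, 0 to 100) and genes drawn below, class II chain genes in blue and the direction of transcription by an arrowhead. Tall H3K4me3 bars stand at H2-DMa, the class I processing genes, H2-Ab1, between H2-Aa and H2-Eb1, and inside H2-Eb1, while H3K27Ac ends to the left of H2-Ab1.

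The promoters of the 10 genes were poor in CpG, a feature that H3K4me3 followed over all genes. Over the 31601 curated starts the median ratio of observed to chance CpG in the promoter window was 0.395. The 10 genes had 14 starts, and 13 of these had ratios of 0.0812 to 0.25, while the first start of H2-DMa, which shares its sequence with Brd2, had 0.628. Of all starts with a ratio below 0.2, 5.16% had H3K4me3 in the window, of those from 0.2 to 0.4 it was 31.3%, and of those from 0.6 to 0.8 it was 93.2%. Of the 9 starts of these genes below 0.2, 1 had H3K4me3, that of H2-Ab1 (ratio 0.129). None of the 4 starts from 0.2 to 0.4 had it (the second start of H2-DMa, both of Ptprc and 1 of Ciita).

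**Figure D3:**
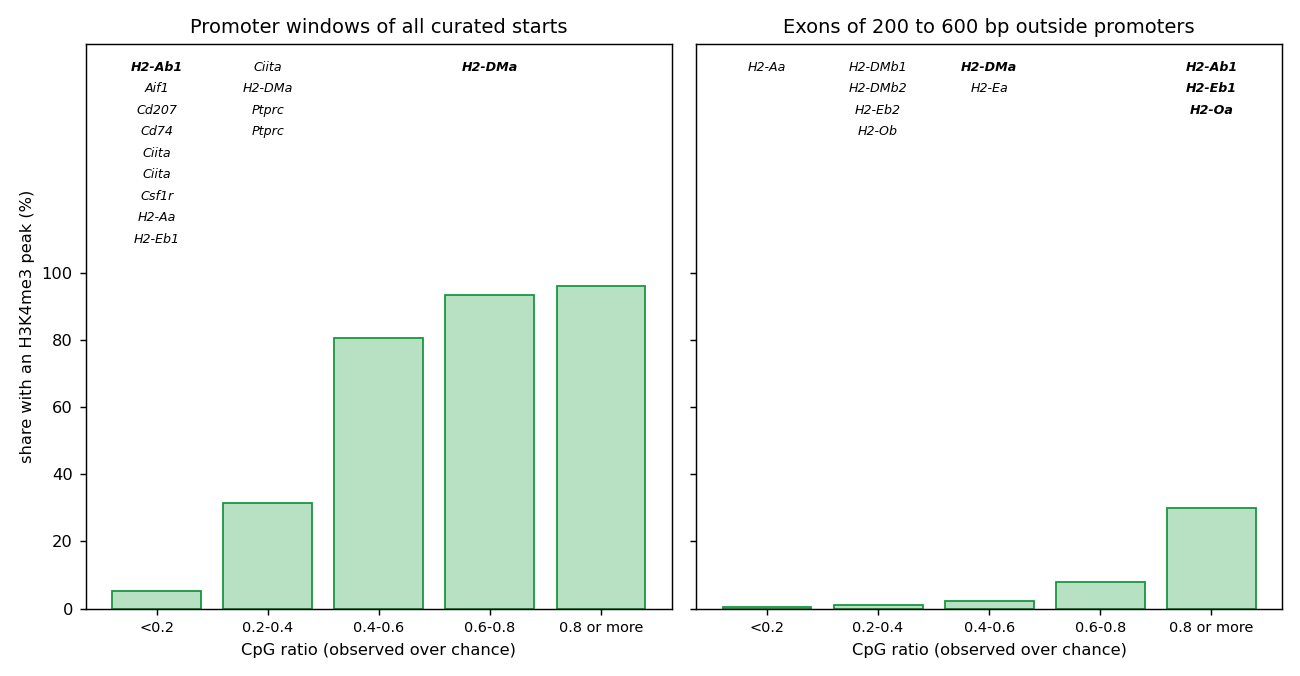
Share of promoter windows (left) and of exons of 200 to 600 bp outside promoters (right) that overlap an H3K4me3 peak, in percent (vertical axis), by class of CpG ratio (horizontal axis), with the described genes written above the class of each of their starts (left) or of the second exon of each class II chain gene (right). Names in bold overlap an H3K4me3 peak, as H2-Ab1 does in the lowest class of starts and H2-Ab1, H2-Eb1 and H2-Oa do in the highest class of exons.

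The class II activator and chaperone genes had no peak at any start or in the body. Ciita (chr16:10480072-10527640, plus strand) has 3 curated starts, at positions 10480072, 10488178 and 10489781, known to serve different cell types, and all were empty. A MOF peak at chr16:10477165-10478357 (score 642, higher than 56.1% of MOF peaks) ended 1715 bp upstream of the first start, with no H3K4me3 or H3K27Ac peak over it. All other peaks within 20 kb of Ciita lay beyond its 3′ end, mainly at the promoters of Dexi and Clec16a. Cd74 (chr18:60803849-60812652, plus strand) had its nearest peaks 14266 to 15157 bp upstream. These were H3K27Ac peaks with fold enrichments of 6.36 and 6.06 (higher than 74.5% and 71.0% of the list) and a narrow H3K4me3 peak of 4.51 (17.8%), none of them at an annotated start. The nearest MOF peak to Cd74 was 28.7 kb away, at the promoter of Rps14.

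Langerin and the general leukocyte genes were empty over wide distances. For Cd207 (chr6:83671207-83677857, minus strand) the nearest H3K4me3 peak was 33.0 kb away, at Vax2, the nearest MOF peak 34.2 kb and the nearest H3K27Ac peak 64.9 kb. For Ptprc (chr1:138062859-138175305, minus strand) the nearest peak of any list to a start was H3K27Ac at 114783 bp, and the gene body of 112447 bp was empty. For Csf1r (chr18:61105572-61131139, plus strand), the receptor for Il34, the nearest peak to the gene was H3K27Ac at 23.8 kb, and the nearest H3K4me3 peak was 39.5 kb from the start.

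Aif1 was the exception among the leukocyte genes. Its curated start had no peak, yet H3K4me3 at chr17:35173008-35173447 (fold enrichment 6.30, higher than 45.6% of the list) and H3K27Ac at chr17:35173007-35173772 (4.08, 28.3%) lay together over the second exon. GENCODE M21 places the start of a protein-coding Aif1 transcript there, at position 35173278. A weaker H3K27Ac peak (2.95) lay in the first intron, and an H3K4me3 peak (5.70) lay 2490 bp upstream of the curated start. Unlike the second exons of H2-Ab1 and H2-Eb1, the H3K4me3 interval in Aif1 was poor in CpG (ratio 0.129, higher than 4.97% of H3K4me3 peaks). About 10 kb upstream, in the neighbouring leukocyte gene Lst1, stronger peaks followed with H3K4me3 at 12.3 and H3K27Ac at 10.3.

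**Figure D4:**
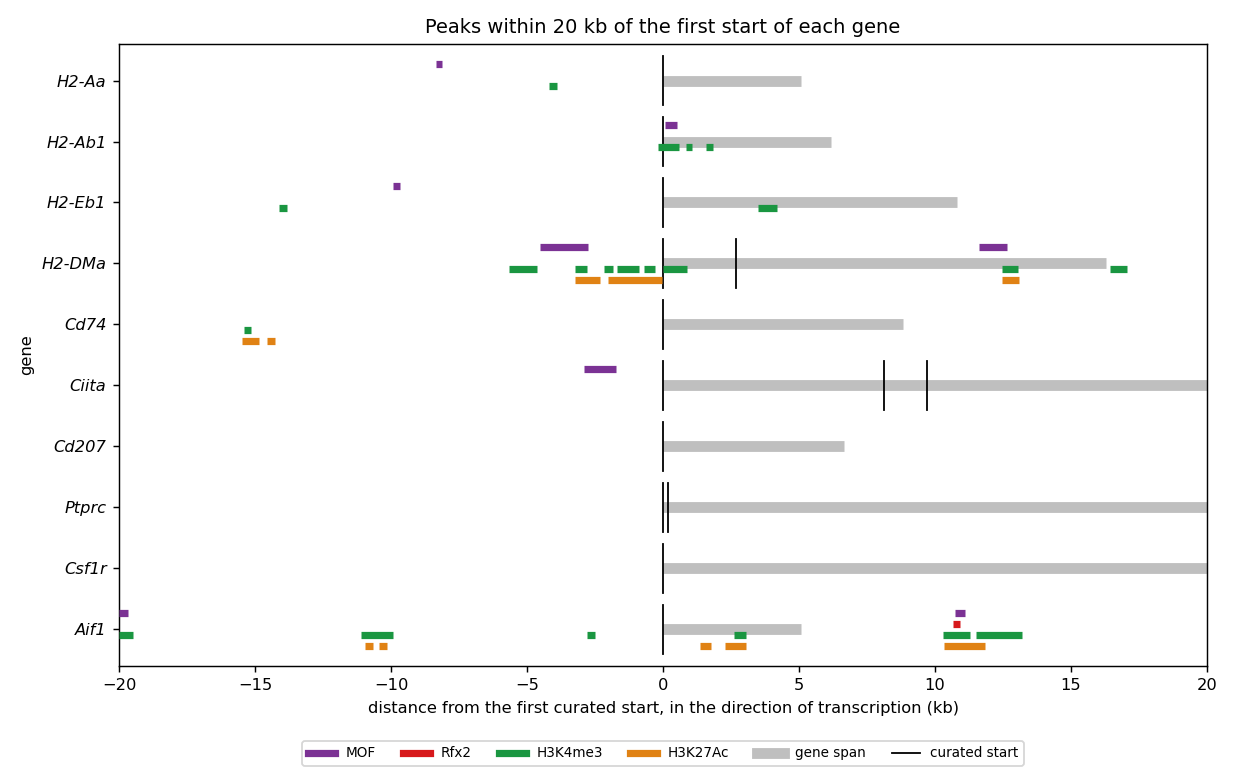
Peaks of the 4 lists within 20 kb of the first curated start of each gene, by distance in kb in the direction of transcription (horizontal axis), with 1 row per gene (vertical axis), gene spans in grey and curated starts as black lines. H2-Ab1 has H3K4me3 on its start, H2-Eb1, H2-DMa and Aif1 have it inside the gene, and Cd207, Ptprc and Csf1r are empty.

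The pattern of presence or absence over the 4 lists and the 3 kinds of place was then used to find neighbours that looked alike within 500 kb. Genes that lie close together share peaks in their counts within 20 kb, so their likeness is in part fixed by position, as for Aif1 and Lst1 and for the overlapping H2-Oa and BC051537. H2-Ab1 shared its pattern with H2-K1, a class I heavy chain gene, H2-Eb1 with H2-Oa and BC051537, Aif1 with Lst1, and Cd207 with Clec4f, another C-type lectin gene. H2-Aa matched Gm27740, H2-DMa matched Marchf2, Cd74 matched G630071F17Rik, Ptprc matched Mir181a-1 and Mir181b-1, and Csf1r matched Mir5107 and Mir6983. Ciita matched none of its 19 neighbours. The pattern of Aif1 was held by 3 other genes of all 26180, that of H2-Eb1 by 56, that of H2-Ab1 by 111 and that of H2-Aa by 228. The patterns of Cd74 (749 genes), Ciita (1251) and H2-DMa (1327) were common. The empty pattern of Cd207, Ptprc and Csf1r was held by 5388 other genes.

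Other lists of genes were set beside these to see what the epidermal preparation held. Of 16 keratinocyte genes, 13 had H3K4me3 at the promoter (81.2%, beside 54% of all genes), including Dsg3, Col17a1, Itgb4 and Sfn, and 9 had H3K27Ac (56.2%, beside 44.1%, with an exact 95% interval of 29.9 to 80.2%). Krt1 and Krt10 had neither mark there, though both marks lay in their gene bodies, and Itga6 had H3K27Ac alone. The highest H3K4me3 fold enrichment of the keratinocyte promoters was 5.22 (Dsg3), below the 12.4 of H2-Ab1 in the same list, but by −log10 q the highest, 47.0 at Sfn, was close to the 47.1 of H2-Ab1. Of 19 Langerhans and myeloid genes, 4 (21.1%) had H3K4me3 (Irf8 6.77, Coro1a 6.20, Epcam 5.88 and Id2 3.43) and 2 (10.5%) had H3K27Ac (Epcam and Id2), while Itgax, Itgam, Itgb2 and Adgre1 were among the 15 without H3K4me3, of which Spi1 had both marks in the gene body. Epcam and Id2 are also used by epithelial cells. Of 10 T cell genes 1 had H3K4me3 and H3K27Ac (Thy1), and Cd3e, Cd3g, Cd3d and Lck had neither there, though Lck, Cd5 and Itgae had both in the gene body. H3K4me3 was at 5 of 9 melanocyte gene promoters (55.6%, near the 54% of all genes), 3 of 8 fibroblast (37.5%) and 1 of 5 endothelial gene promoters. MOF was at 2 of the 16 keratinocyte promoters (12.5%, beside 23.7% of all genes) and 1 of the 19 Langerhans and myeloid promoters (5.26%). It was at 0 of 10 T cell, 1 of 9 melanocyte, 2 of 8 fibroblast (25.0%) and 0 of 5 endothelial promoters. A MOF share below that of all genes was thus not particular to the 10 genes. In such a mixed tissue, fewer cells of a type and less mark per cell cannot be told apart, and whether peaks at the 10 genes came from Langerhans cells or keratinocytes was not tested.

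Genes that serve class II presentation without encoding its chains were set against the same shares of all genes, 23.7% for MOF, 54% for H3K4me3 and 44.1% for H3K27Ac. All 7 genes of the X and Y box complexes (Rfx5, Rfxank, Rfxap, Nfya, Nfyb, Nfyc and Creb1) had MOF, H3K4me3 and H3K27Ac at the promoter, with H3K4me3 fold enrichments from 4.67 (Nfyb) to 9.38 (Nfyc). Of 6 genes for class II processing 4 had both marks (66.7%, with an exact 95% interval of 22.3 to 95.7% that holds both shares of all genes) and 2 had MOF. Those with both marks were the proteases Lgmn and Ctsl, the thiol reductase Ifi30 and Sppl2a, which cuts the invariant chain. Ctss, the protease typical of antigen-presenting cells, and Marchf1 had neither. Of 9 class I genes 8 (88.9%) had H3K4me3, 6 (66.7%) had H3K27Ac and 4 (44.4%) had MOF, and the class I activator Nlrc5 had neither. Keratinocyte signals that support or recruit Langerhans cells had H3K4me3 at 4 of 5 promoters (Csf1 8.99, Tslp 5.42, Il34 5.38 and Tgfb1 4.70), with H3K27Ac at Csf1 and MOF at 0 of 5. Il34 thus had H3K4me3 at its promoter and its receptor gene Csf1r did not. No gene of any list had an Rfx2 peak at the promoter.

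**Figure D5:**
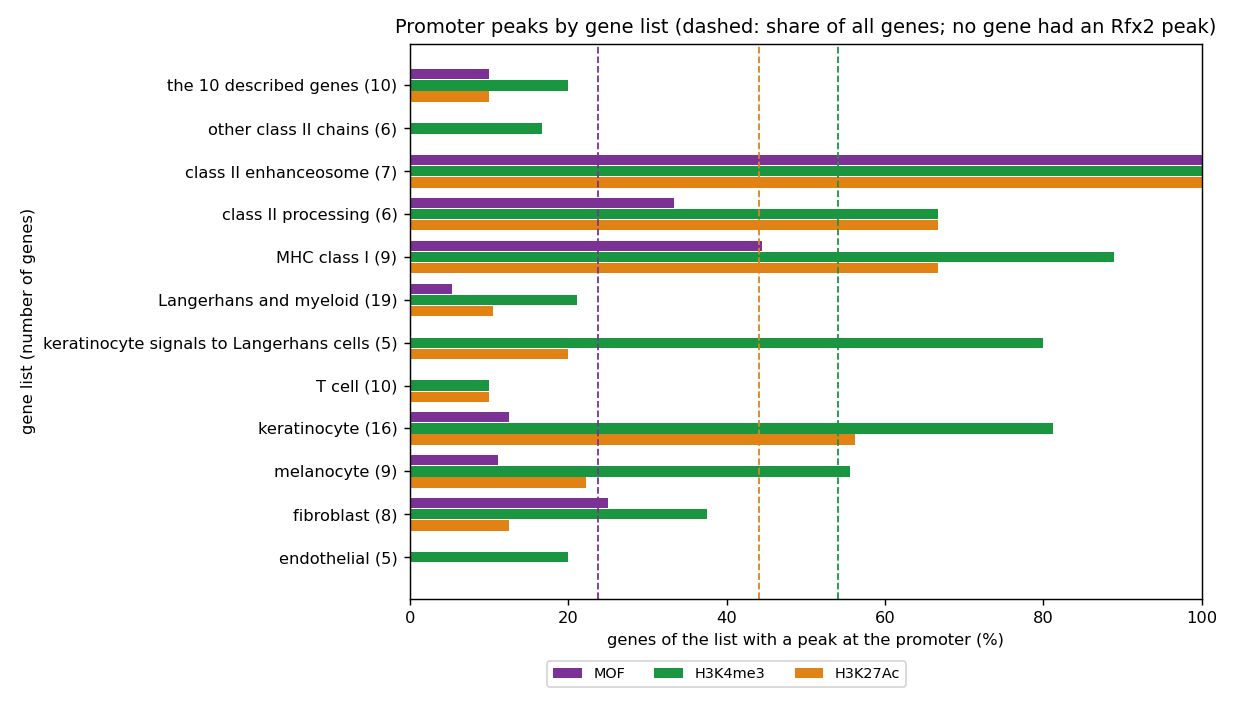
Share of the genes of each list with a MOF, H3K4me3 or H3K27Ac peak at the promoter, in percent (horizontal axis), for the 10 described genes and 11 other lists (vertical axis, number of genes in parentheses), with dashed lines at the share of all genes. The 10 described genes lie left of each dashed line, as do the other class II chains and the Langerhans and myeloid, T cell and endothelial lists, and the genes of the X and Y box complexes reach 100% for all 3.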

How the data were processed

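Peak lists of MOF ChIPseq and Rfx2, H3K4me3 and H3K27Ac Cut&Run from newborn epidermis were used. Per the study's methods, the authors aligned reads to mm10 with Bowtie2 (very sensitive local mode) and called peaks per sample with MACS2. The control library and any excluded regions are not given in the sources used here. The deposited MOF file gives a score per peak whose scale is not stated. The deposited Rfx2, H3K4me3 and H3K27Ac files give fold enrichment over the caller's local background and the −log10 p and q values of the authors' peak calls. Heights were ranked within a list and not compared between lists. As the lists give no depth, a missing peak means that none was called.

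Peaks were overlapped by at least 1 bp with windows of curated RefSeq transcripts on GRCm38.p6 in Python 3.11.15 (pandas 2.3.3, SciPy 1.17.1, matplotlib 3.10.9). GENCODE M21 gave further starts. The overlap calls were tested on simulated data against bedtools 2.31.1. Intervals are exact Clopper-Pearson 95% intervals and cover counting error only. With 1 list per antibody no test was made. CpG ratios are the observed CpG over the number expected from the C and G content. The 10 genes and the gene lists were chosen with earlier results of these data known. All 10 genes are described, and other genes are named from the lists, as neighbours of a peak, or where all 12 presence calls (4 lists at 3 places) matched within 500 kb. Alternatives changed the window, the overlap rule, the peak strength, the distance and the annotation.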

Additional observations from a re-analysis of the deposited data

How the results depend on the processing

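No paired analysis was possible because the counts come from single peak lists and from no test. Of 61 alternative values for 13 counts, 43 stayed within 1.5 times the reported count. The Rfx2 counts of 0 at promoters and in gene bodies were 0 under every alternative run. These values are among the 43 but say little, since no window tried for them could reach an Rfx2 peak. The nearest was 10.6 kb from the Aif1 start and, for the other genes, 298 kb from the H2-Eb1 start. Promoter counts were the least stable. Shares of all genes under the same rule stand in parentheses. With 2.5 kb on either side of the start, MOF was at 2 of the 10 promoters (27.8%) and H3K27Ac at 2 (48.3%). With GENCODE M21 basic transcripts MOF was at 2 (13.3%), H3K4me3 at 3 (30.2%) and H3K27Ac at 2 (23.9%), so MOF turned from below to above the share of all genes. With the peak centre in the window, MOF was at 0 (14.7%), H3K4me3 at 1 (25.5%) and H3K27Ac at 0 (26.2%). With the strongest 50% of peaks, MOF was at 0 promoters (14.6%), in 1 gene body (20.3%) and within 20 kb of 3 genes (38.3%), H3K4me3 at 1 promoter (45.3%), H3K27Ac in 1 gene body (38.6%) and Rfx2 within 20 kb of 0 genes (1.49%). Leaving out peaks at another gene's promoter gave 1 promoter for H3K4me3 (40.3%), 0 for H3K27Ac (32.2%) and 0 genes within 20 kb for Rfx2 (1.17%). With the MOF core the MOF promoter count was 0 (20.6%). Within 10 kb H3K27Ac was near 2 genes (60.4%). The GENCODE alternative, the MOF core and, for promoters, the exclusion of shared peaks were chosen after seeing the data.

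Without replicate lists, how far these peaks would recur could not be measured. Which of the H3K4me3 libraries gave the list is uncertain, since its name lacks the repeat mark of the sample that holds it.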
